A study of Mus musculus with 2 samples.

Results

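The genes for the proteins of the mitochondrial ribosome were taken from an assay of chromatin accessibility in mouse heart. The members are the protein-coding genes of the GENCODE M21 annotation (mm10) whose symbol starts with Mrpl or Mrps followed by a digit. The rule found 78 genes of 21911 protein-coding genes on the nuclear chromosomes, 49 of them named for the large subunit (Mrpl) and 29 for the small subunit (Mrps). The study holds 1 group, heart tissue of male B6CASTF1/J mice at 14 days after birth, in 2 biological replicates, so it has no contrast and no test was made. These mice are F1 hybrids that carry 1 genome of C57BL/6J and 1 of CAST/EiJ. The label of replicate 1 names 3 males, that of replicate 2 has no such number, and both carry the same donor label. The spread between them may therefore not be that between single animals. The assay was DNase-seq, which reads where the enzyme DNase I can cut the chromatin of isolated nuclei.

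The mitochondrial ribosome, or mitoribosome, translates the few mRNAs of the mitochondrial genome, all of which encode subunits of the respiratory chain and ATP synthase. Its rRNAs are made in the organelle, while every one of its proteins is encoded in the nucleus, made in the cytosol and imported. The small subunit decodes the mRNA, and the large subunit joins the amino acids and holds the exit tunnel at the inner membrane. Heart muscle is rich in mitochondria, and the factors NRF1, GABP (an ETS protein) and YY1 are known activators of many nuclear genes for mitochondrial proteins.

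A promoter was the 1 kb either side of any annotated start of a gene, and its value was the signal of the highest peak there, a read-depth scaled value given by the authors with each peak. A gene with such a peak in both replicates is called open. The larger deposited peak sets held 143122 peaks in replicate 1 and 125118 in replicate 2, and without read totals the depth behind a peak is unknown. The promoters of 6 of 6 cardiomyocyte markers, 4 of 4 endothelial markers and 4 of 4 fibroblast markers were open, against 0 of 4 for liver, 1 of 4 for leukocytes and 2 of 4 for neurons. The tissue was taken whole, and a peak does not tell from which of its cells it came.

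All 78 mitoribosomal protein genes were open, against 68.8% of all protein-coding genes. In the smaller, stricter peak sets of the authors the count was again 78, against 65.3% of all genes. Promoter signal had a median of 8.66 over the 78 genes, against 6.60 over the 15069 open genes and 2.86 over all genes. Of the 78, 50 lay above the median of the open genes, where 34.4% of all genes lie and, by definition, 7534 of the 15069 open genes. The genes were not alike: the highest mean was 8.75 times the lowest. Among the 10% of all genes with the highest signal stood 14 of 78 (17.9%), close to the 14.5% of open genes. The lowest member still stood at the 48.3rd percentile of all protein-coding genes.

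Replicate 1 was higher than replicate 2 at 72 of 78 mitoribosomal promoters (92.3%), against 80.7% of all open genes. The log2 ratio of replicate 1 over replicate 2 had a median of 0.29 (SD 0.19 over genes) among the 78 genes and of 0.26 (SD 0.28) among open genes. No member differed by 2-fold between the replicates, with log2 ratios between -0.21 and 0.73. The order of the genes below therefore compares values whose shared shift between replicates runs through most of the genome. That shift enters each SD, so genes with overlapping SDs can still keep the same order in each replicate.

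Among large subunit genes the most accessible promoter was that of Mrpl17, whose protein lies near the exit tunnel. Mrpl17 (ENSMUSG00000030879.10, chr7:105803206-105811099, minus strand) reached 24.6 in replicate 1 and 19.9 in replicate 2, a mean of 22.2 ± 3.28 (SD, n = 2), and its peak in replicate 1 spanned chr7:105811001-105811320. Mrpl45 (ENSMUSG00000018882.12, chr11:97315716-97329920, plus strand), whose protein sits at the tunnel exit facing the inner membrane, followed with 22.2 and 20.8, a mean of 21.5 ± 0.967. Mrpl17 was the higher in replicate 1 and Mrpl45 in replicate 2, so their order is not resolved. Both peaks reached no other protein-coding gene. Mrpl49 averaged 18.5 ± 2.36, Mrpl39 17.5 ± 2.22 and Mrpl32 15.4 ± 1.16. Mrpl49 and Mrpl32 share their peaks with the genes on the other side, Fau and Psma2.

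The lowest large subunit promoter belonged to Mrpl24 (ENSMUSG00000019710.13, chr3:87919506-87923672, plus strand), a core protein with a bacterial counterpart. Its signal was 3.07 in replicate 1 and 2.13 in replicate 2, a mean of 2.60 ± 0.665 (SD, n = 2). Mrpl53 at 3.86 ± 0.360, Mrpl33 at 3.90 ± 0.204, Mrpl27 at 4.09 ± 0.562 and Mrpl16 at 4.49 ± 1.12 came next. These 4 do not separate from one another beyond their spread, while each of their replicate values exceeded both values of Mrpl24.

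In the small subunit the highest signal was at Mrps18b (18.3 in replicate 1 and 13.6 in replicate 2, mean 15.9 ± 3.33, SD, n = 2), one of 3 mouse genes for Mrps18-type proteins. Mrps9, a protein of the head of the subunit, had 17.6 and 13.9, a mean of 15.8 ± 2.61. Mrps14 averaged 14.8 ± 2.77, Mrps27, a pentatricopeptide repeat protein, 14.6 ± 2.43, and Mrps33 14.1 ± 2.14. These 5 overlap in their SDs. Mrps18b was above Mrps9 in replicate 1 and below it in replicate 2, while both were above Mrps14 in each replicate. The peak of Mrps18b also reaches Ppp1r10, its middle lies at -451.5 bp from the start of Mrps18b in replicate 1, and without it no peak at 1 gene only is left there. The other 2 of its type averaged 5.46 ± 0.587 (Mrps18c, whose peak also reaches Helq) and 4.32 ± 0.315 (Mrps18a).

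Mrps22 (ENSMUSG00000032459.9, chr9:98588730-98601660, minus strand) had the lowest promoter signal of the whole set, with 2.96 in replicate 1 and 2.12 in replicate 2, a mean of 2.54 ± 0.598 (SD, n = 2). Mrps25 averaged 3.18 ± 0.263, Mrps34 3.71 ± 0.791, Mrps10 3.98 ± 1.02 and Mrps31 3.99 ± 0.907. The spreads of Mrps22 and Mrpl24, the lowest of each subunit, overlap almost fully, although Mrps22 was slightly the lower in each replicate.

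**Figure D1:**
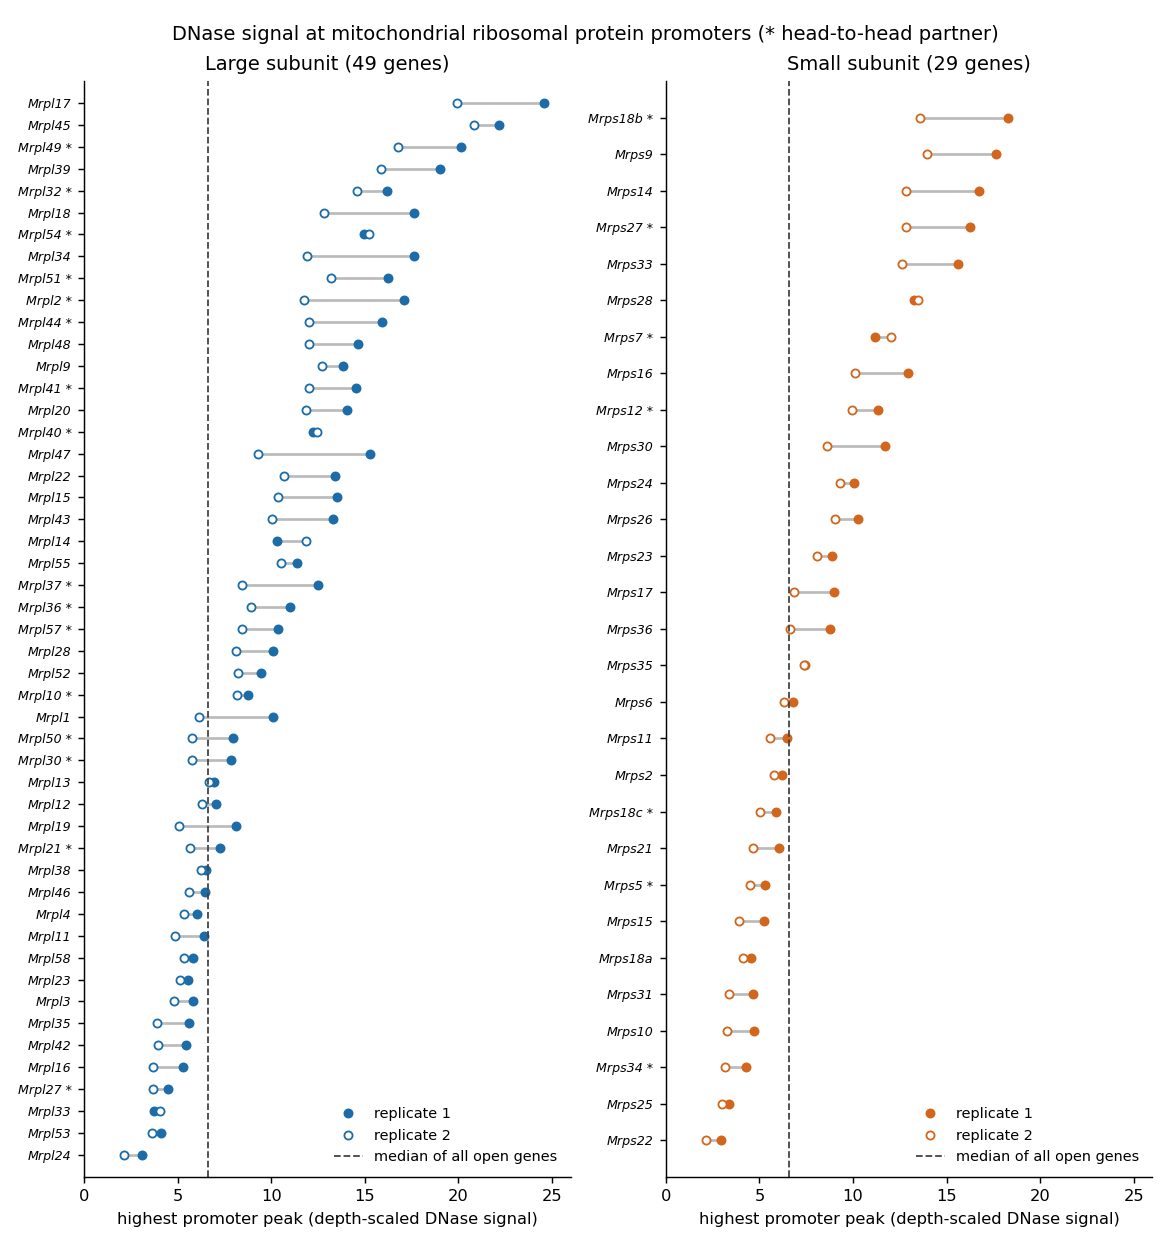
Signal of the highest promoter peak (horizontal axis, depth-scaled DNase signal) for each large subunit gene (left, 49) and small subunit gene (right, 29), with replicate 1 filled, replicate 2 open, and the median of all open genes at 6.60 as a dashed line. Mrpl17 and Mrpl45 lead the large subunit, Mrps22 has the lowest mean, and replicate 1 is the higher in 72 of 78 genes.

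The subunits overlapped widely. Means ran between 2.60 and 22.2 over the 49 large subunit genes and between 2.54 and 15.9 over the 29 small subunit genes. The large subunit had the higher median, 9.40 against 7.70 for the small subunit, a difference of 1.69. The difference was 1.54 in replicate 1 and 1.57 in replicate 2. Genes are not replicates of a subunit, so no test was made. The direction turned when peaks that reach another protein-coding gene were left out and genes with no other peak counted as 0. The medians were then 3.86 for the large and 4.32 for the small subunit, a difference of -0.46. A peak was left at 30 of 49 large (61.2%) and 20 of 29 small subunit genes (69.0%), against 85.2% of open genes. The part of the genes counted as 0 in this turn was not tested. The subunit names also do not follow structure throughout: Mrps18a and Mrps30 are known as large subunit proteins, and Mrps36 as a part of the 2-oxoglutarate dehydrogenase complex. With these moved or left out, the difference was 1.73.

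Numbers up to 36 in the large and 21 in the small subunit follow the bacterial ribosomal proteins, while most higher numbers were given to proteins that bacteria lack (Mrps24 and Mrpl47 are known exceptions). The 34 genes with higher numbers had a median of 9.92, and the 44 with bacterial numbers a median of 6.81. In the large subunit the medians were 11.7 over 21 genes with higher numbers and 7.46 over 28 with bacterial numbers. In the small subunit they were 8.48 over 13 genes and 6.30 over 16 genes. The ranges overlapped in each subunit. With peaks at 1 gene only, the order turned over all members, with medians of 3.52 for higher and 4.404 for bacterial numbers. It also turned in the large subunit, with 0 and 4.62, but not in the small subunit, with 7.41 and 4.15. Genes left without such a peak counted as 0 in these medians. One was left at 10 of the 21 and 20 of the 28 large subunit genes. In the small subunit it was left at 10 of the 13 and 10 of the 16. Head-to-head partners, described below, were found at 9 of the 21 (42.9%) and 7 of the 28 (25%) large subunit genes, and at 2 of the 13 (15.4%) and 5 of the 16 (31.3%) small subunit genes, against 7.91% of all protein-coding genes. Their part in the difference was not tested.

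Variants of several members cause mitochondrial disease in humans, among which those of MRPL3, MRPL44, MRPS14 and MRPS22 are known with cardiomyopathy. The mouse promoters of these 4 spread over most of the range. Mrps14 had 16.7 in replicate 1 and 12.8 in replicate 2, Mrpl44, which carries an RNase III-like fold, 15.9 and 11.99, Mrpl3 5.79 and 4.83, and Mrps22 2.96 and 2.12. Means of the other 7 were 13.4 ± 0.134 at Mrps28, 11.6 ± 0.607 at Mrps7, 11.5 ± 2.02 at Mrps16, 8.48 ± 0.588 at Mrps23, 6.67 ± 0.4997 at Mrpl12, 6.00 ± 0.281 at Mrps2 and 3.71 ± 0.791 at Mrps34 (SD, n = 2 each). Like all members, these 11 were open, and they stood on either side of the median of open genes.

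The accessible stretch was about as short as in open genes and more often close to an annotated start. The highest peak was 200 bp wide at the median in each replicate over the 78 genes, against 200 and 220 bp over open genes. Distances are from the annotated start nearest the middle of that peak, so closeness is partly set by this choice, made alike for open genes. The middle lay within 100 bp of that start at 71 of 78 genes (91.0%) in replicate 1 and 69 of 78 (88.5%) in replicate 2. The share was 67.2% of open genes in each replicate. At the start itself, a peak covered 92.9% of large subunit and 98.3% of small subunit promoters, against 78.3% of open genes (means of the replicates). At 200 bp before the start the shares were 8.16% for the large subunit, 8.62% for the small subunit and 22.7% for open genes. For a few genes the highest peak was off the start: relative to the start, its middle in replicate 1 was at 387.5 bp in Mrps28, 273.5 bp in Mrpl54, -420.5 bp in Mrps12 and -451.5 bp in Mrps18b.

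**Figure D2:**
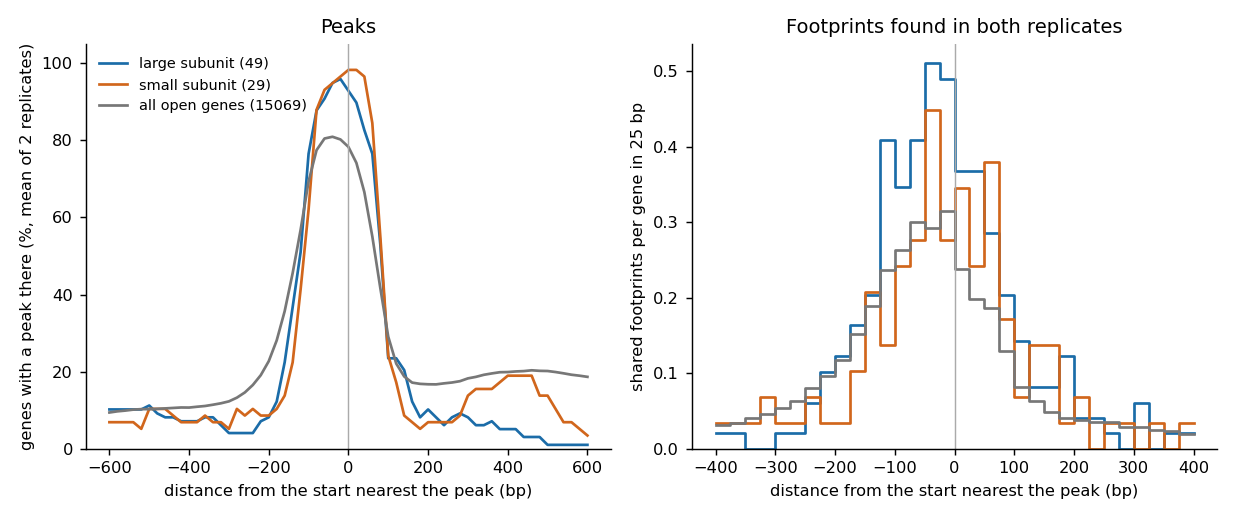
Left, percentage of genes with a peak at each distance in bp from the annotated start nearest the middle of the highest peak, as the mean of the replicates; right, shared footprints per gene in bins of 25 bp, for the large subunit, the small subunit and all open genes. At the start a peak covers 92.9% of large and 98.3% of small subunit promoters, against 78.3% of open genes, and footprints are densest between 50 and 25 bp before it, at 0.510 per large and 0.448 per small subunit gene.

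For 57 of 78 genes the outermost annotated 5' end was also the start nearest the peak. At 3 genes they lay more than 1 kb apart. The accessible start was 17082 bp inside the annotated end of Mrpl33, 7990 bp inside that of Mrps24 and 3206 bp inside that of Mrpl35. Around the outermost end alone, Mrps24 and Mrpl35 had no peak in either replicate, although at their inner starts the means were 9.69 ± 0.514 and 4.75 ± 1.18.

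Many mitoribosomal genes lie head to head with another gene, so that 1 accessible region serves the starts of a pair on opposite strands. A protein-coding partner, with its 5' end at most 1 kb upstream or overlapping by at most 200 bp, was found for 23 of 78 genes (29.5%), against 7.91% of all protein-coding genes and 11.2% of open genes. The share was 32.7% in the large subunit (16 genes) and 24.1% in the small subunit (7 genes). In 18 pairs a gap separated the ends, with a median of 82 bp, and in 16 of them it was at most 200 bp. In the other 5 the genes overlapped at their heads.

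The partners are of many kinds, and the following were picked by name after the pairs were known. Mrps12, a protein of the decoding centre, lies 172 bp from Sars2, the mitochondrial seryl-tRNA synthetase, and Mrps27 lies 81 bp from Ptcd2, which acts in mitochondrial RNA processing. Mrpl36 overlaps the head of Ndufs6, a subunit of respiratory complex I, by 29 bp. Mrpl49 lies 59 bp from Fau, which encodes a fusion that releases a protein of the cytosolic small subunit, and Mrpl32 lies 75 bp from Psma2, a proteasome subunit. Both genes for the alternative partners of the MUS81 nuclease, Eme1 and Eme2, stand opposite a member, Mrpl27 and Mrps34. Hira, a histone chaperone, lies 175 bp from Mrpl40, Ncapd2, of condensin, 100 bp from Mrpl51, Ska3, of the kinetochore, 49 bp from Mrpl57, and Helq, a DNA helicase, 29 bp from Mrps18c.

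**Figure D3:**
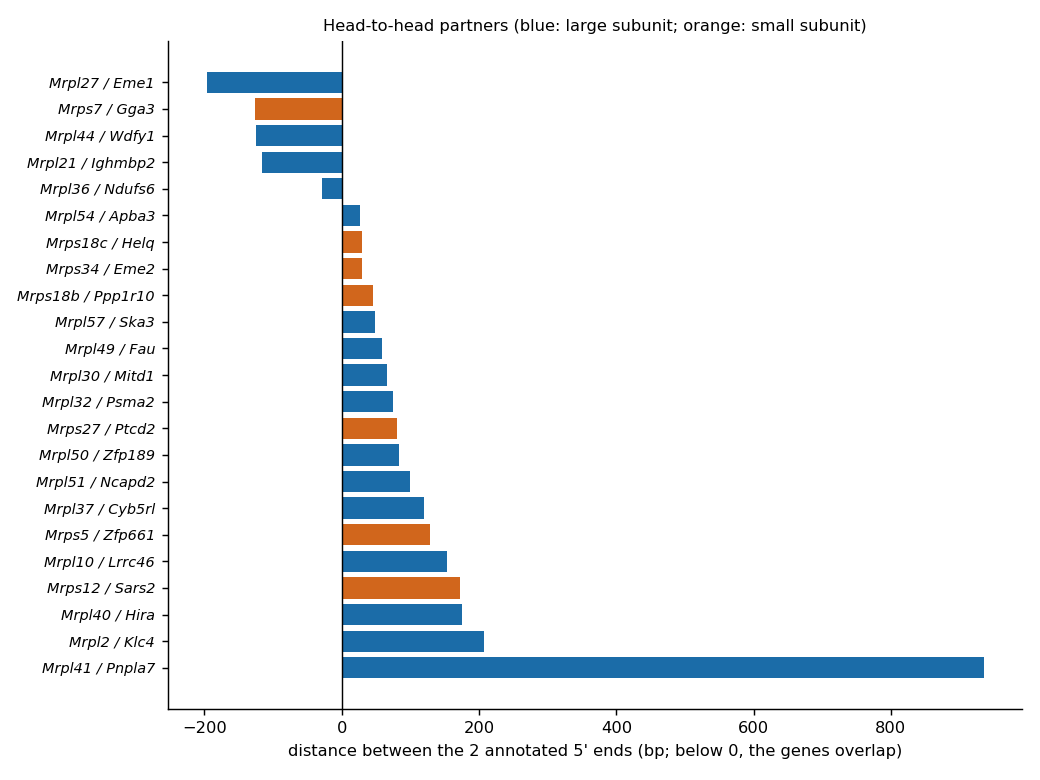
Distance in bp between the annotated 5' ends of 23 mitoribosomal genes and their head-to-head partners, with large subunit genes in blue and small subunit genes in orange; values below 0 mean that the genes overlap. Most gaps are under 200 bp, and that of Mrpl41 and Pnpla7, at 935 bp, is the widest.

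One peak served genes of both subunits. Mrps11 and Mrpl46 have the same highest peak, chr7:78783001-78783160 in each replicate, at 6.48 in replicate 1 and 5.59 in replicate 2. Their accessible starts lie 30 bp apart on opposite strands. Further starts inside the genes bring the number of members with a partner to 32 of 78, against 11.3% of all genes. Mrpl43 shares its peak with Twnk, the mitochondrial DNA helicase, at 13.3 and 10.0, and Mrpl47 with Ndufb5, of complex I, at 15.3 and 9.27.

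In all, the highest peak of 35 of 78 genes reached the promoter of another protein-coding gene, and what such a peak gives to each gene cannot be told apart. Using only peaks that reach 1 gene left 50 of 78 genes open (64.1%), 30 large and 20 small subunit genes. The share was 85.2% over open genes and 58.6% over all genes. With genes left without such a peak counted as 0, median signal was 3.98 over the 78, 4.05 over open genes and 1.02 over all genes. By this median the members no longer stood above open genes, but it falls with the share of genes counted as 0. The 43 members whose highest peak reached no other gene had a median of 6.67. The 3 genes that kept some signal and lost the largest part were Mrps6, at 0.149 ± 0.211, Mrpl47, at 0.432 ± 0.0113, and Mrpl14, at 0.749 ± 0.215. Members with a head-to-head partner had a median signal of 10.6 and the other 55 a median of 7.70. Among all open genes the medians were 10.7 with a partner and 6.04 without, so the same order was seen outside the set.

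The bases between the annotated 5' ends were read for the 13 pairs with the shortest gaps, up to 128 bp at Mrps5. The wider gaps, from 153 bp at Mrpl10 to 935 bp at Mrpl41, were not read. The following are read from GRCm38.p6, the reference of C57BL/6J, on the strand of the mitoribosomal gene, and hold no annotated exon. Capitals mark matches on either strand to CCGGAAG (ETS) at Mrps18b, Mrps18c and Mrps27, to CCAAT (NFY) at Mrpl32 and Mrpl51, and to GGGCGG (SP/KLF) at Mrpl51.
Mrpl49 and Fau, chr19:6057786-6057843, minus strand: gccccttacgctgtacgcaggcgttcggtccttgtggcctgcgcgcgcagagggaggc
Mrpl32 and Psma2, chr13:14613166-14613239, minus strand: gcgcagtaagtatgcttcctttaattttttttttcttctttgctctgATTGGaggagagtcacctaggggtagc
Mrpl51 and Ncapd2, chr6:125191702-125191800, plus strand: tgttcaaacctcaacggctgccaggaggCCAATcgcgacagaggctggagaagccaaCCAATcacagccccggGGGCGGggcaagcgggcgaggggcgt
Mrps18b and Ppp1r10, chr17:35916390-35916433, minus strand: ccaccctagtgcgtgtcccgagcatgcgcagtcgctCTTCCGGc
Mrps18c and Helq, chr5:100798599-100798626, plus strand: gtgaCTTCCGGcccgggaagcgcgggaa
Mrps27 and Ptcd2, chr13:99344706-99344785, plus strand: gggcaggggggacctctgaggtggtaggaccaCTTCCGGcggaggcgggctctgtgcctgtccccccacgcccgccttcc
Mrpl49 and Fau, the pair with the highest signal, hold between their ends none of the 5 consensus sequences marked for these gaps. These 5 were NRF1, ETS, YY1, SP/KLF and NFY. The gaps shown are a part of 13 that were read, of which 5 held none of the sequences. ETS was in 3 of the 13, all shown above, SP/KLF in 3, NFY in 4, and NRF1 and YY1 in 0. Gaps of other head-to-head genes were not read, so these counts have no background. All 13 gaps are shorter than the window of 250 bases before to 50 after the 5' end used below. The shares given for that window are therefore no measure for them, and whether any sequence is frequent or rare here was not tested.

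Footprints are short stretches inside accessible DNA with fewer cuts, and a footprint counted as shared when it and 1 of the other replicate covered at least 50% of each other. At least 1 shared footprint lay in the promoters of 76 of 78 genes, against 63.5% of all genes and 92.2% of open genes. The median number was 5 over the large and 3 over the small subunit, and 4 over both the 78 genes and the open genes. Mrps15 and Mrps34 had none that was shared, with 4 and 7 footprints at Mrps15 and 4 and 4 at Mrps34 in replicates 1 and 2. The most were at Mrps18b with 17, Mrpl48 with 14, Mrpl40 with 12, Mrps28 with 10 and Mrpl34, Mrpl36 and Mrps7 with 9 each. These counts rise with the number of annotated starts, since each adds to the promoter. Within 250 bp of the 5' end alone, 67 of 78 genes held a shared footprint, and Mrps7 led with 9.

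Footprints sat close to the start. Of those within 500 bp of the start nearest the peak, 60.9% lay within 100 bp of it over the 78 genes (353 footprints), against 51.8% over open genes. For the large subunit the share was 61.6% and for the small subunit 59.5%. In the first 100 bp of the gene lay 26.3% of them, against 20.3% for open genes.

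Matches to 14 consensus sequences were sought on both strands in the 250 bases before to 50 after the 5' end. A match describes letters of the reference, not a bound site, and alleles of the CAST/EiJ parent were not read. The sequences of the 3 activators named above were more frequent than in open genes, namely CCGGAAG (ETS, as bound by GABP), AAGATGGCG (YY1) and GCGCATGCG (NRF1). At least 1 of the 3 was found in 34 of 78 genes (43.6%), against 18.8% of open genes and 14.1% of all genes. By subunit the counts were 20 of 49 large and 14 of 29 small subunit genes. Naming these 3 together was done after their values were seen.

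**Figure D4:**
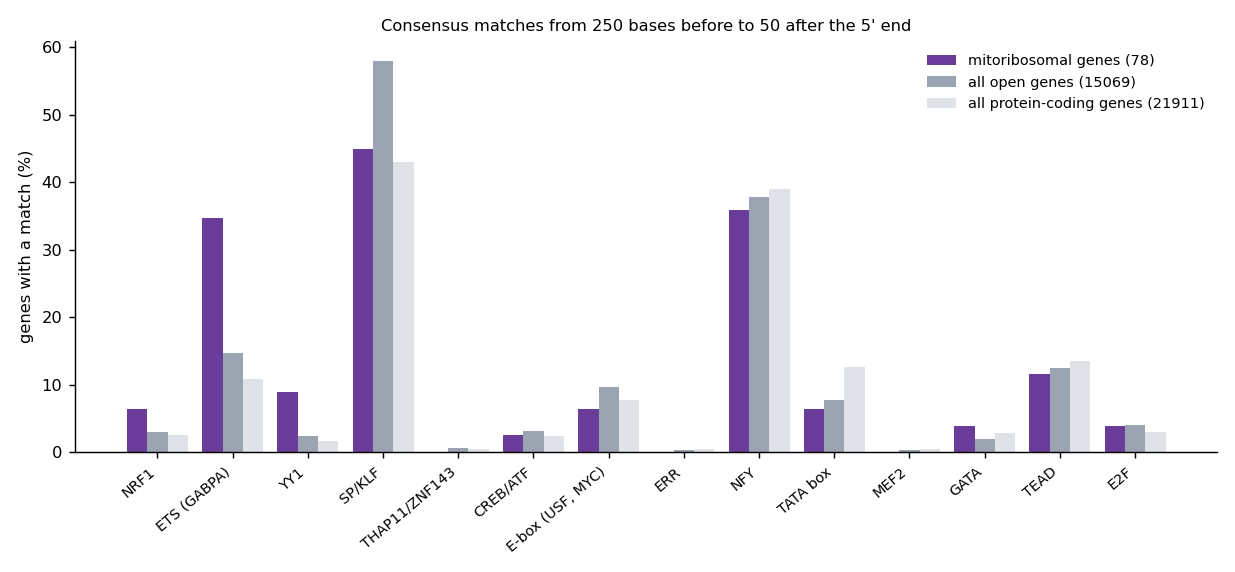
Percentage of genes with a match to each consensus from 250 bases before to 50 after the 5' end, for the 78 mitoribosomal genes, all open genes and all protein-coding genes. ETS (34.6%) and YY1 (8.97%) stand above open genes (14.6% and 2.34%) among the 78, and SP/KLF (44.9%) below them (57.9%).

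The YY1 sequence was found in 7 of 78 genes (8.97%), 3 large and 4 small subunit genes, against 2.34% of open genes and 1.69% of all genes. All 7 matches lay in or within 10 bases of a footprint in each replicate, a count to set against 1.47% of open and 1.01% of all genes. Of the open genes with a match, 62.6% had one there. Read from the start nearest the peak, Mrpl35 and Mrps24 joined them, and again all 9 were at footprints. At 7 of the 9 genes the match began 2 to 29 bases after the start and read in the direction of the gene. At Mrpl36 and Mrps11 it began 72 and 96 bases before the start and read on the other strand, that of the partner. Open genes with a match numbered 431, of which 58.9% held one 0 to 49 bases after the start. At 307 of the 431 a match read in the direction of the gene. The letters ATG inside the match were an annotated start codon of the gene at 5 of the 9, namely Mrpl35, Mrps10, Mrps18a, Mrps24 and Mrps27. Among the 431 open genes with a match the same held for 35.3%. The 9 windows are shown in the direction of the consensus, which stands in capitals.
Mrpl35, chr6:71823743-71823771, minus strand: ggcaggctgcAAGATGGCGgcttccatct
Mrpl36, chr13:73328431-73328459, minus strand: ggtcaccggcAAGATGGCGgcggtgctga
Mrpl37, chr4:107066822-107066850, minus strand: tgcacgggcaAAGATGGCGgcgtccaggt
Mrpl42, chr10:95501904-95501932, minus strand: agattgaagcAAGATGGCGagcgcgcggt
Mrps10, chr17:47368894-47368922, plus strand: tcagggcaccAAGATGGCGgcgcgcgcag
Mrps11, chr7:78783013-78783041, minus strand: ggaagacagaAAGATGGCGgcgcccgtag
Mrps18a, chr17:46111005-46111033, plus strand: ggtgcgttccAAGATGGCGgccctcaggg
Mrps24, chr11:5707647-5707675, minus strand: gcgccggcccAAGATGGCGtggtccgcgt
Mrps27, chr13:99344790-99344818, plus strand: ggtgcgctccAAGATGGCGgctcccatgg
The median signal of the 7 genes was 6.03, against 8.83 over the other 71, the other way round from open genes, with 9.93 and 6.50.

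The NRF1 sequence was found in 5 of 78 genes (6.41%), all of the large subunit, against 3.01% of open genes and 2.49% of all genes. All 5 lay at footprints of each replicate, set against 2.87% of open and 1.98% of all genes. Of the open genes with a match, 95.4% had one there. Mrpl39 joined them at the start nearest its peak. No small subunit gene held this sequence in the window. When the sixth letter could be any base, 3 small (10.3%) and 12 large subunit genes (24.5%) held it, against 11.3% of open genes. The 5 genes had a median signal of 13.3, with Mrpl17, the highest of all members, among them, against 8.11 over the other 73. In open genes the medians were 12.6 with the sequence and 6.44 without, so the order was the same outside the set. The windows of all 6 follow, with the consensus in capitals; at Mrpl32, Mrpl39 and Mrpl9 it matches on each strand, shifted by 1 base, so that 10 letters are marked.
Mrpl10, chr11:97041437-97041465, minus strand: gggccgctatGCGCATGCGtggagctggg
Mrpl17, chr7:105811080-105811108, minus strand: ccgagttactGCGCATGCGtcctctgaga
Mrpl22, chr11:58171621-58171649, plus strand: gcctcggactGCGCATGCGtatagtcagc
Mrpl32, chr13:14613106-14613134, minus strand: tttgacccttGCGCATGCGCaagaggggc
Mrpl39, chr16:84735351-84735379, minus strand: aaggagaggcGCGCATGCGCccccgcgtg
Mrpl9, chr3:94443298-94443326, plus strand: aggcgcagctGCGCATGCGCggggtcctt

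The ETS sequence was the most frequent of the 3, in 27 of 78 genes (34.6%), against 14.6% of open genes and 10.8% of all genes. It was found in 14 of 49 large (28.6%) and 13 of 29 small subunit genes (44.8%), but the subunits were alike in matches at footprints, 20.4% of large and 20.7% of small subunit genes. With the longer ACCGGAAGT, 3 large (6.12%) and 1 small subunit gene (3.45%) held a match, against 1.80% of open genes. These counts are too small to order the subunits. The CCGGAAG match was at a footprint of each replicate in 16 of the 27 genes (20.5% of the 78), set against 9.32% of open and 6.41% of all genes. Of the open genes with a match, 63.8% had one there. Read from the start nearest the peak, 15 of 29 genes with a match held one in the 50 bases before the start (51.7%), against 39.8% of open genes with a match. The median signal was 7.41 with the ETS match and 9.97 without it in the 78 genes, the other way round from open genes, with 9.07 and 6.07. Mrpl43, the pair gene of Twnk, holds 2 such matches at footprints, and Mrpl3, Mrps35 and Mrps23 hold 1 each.
Mrpl43, chr19:45006481-45006509, minus strand: tcgcggtgactCCGGAAGcaaaactctcc
Mrpl43, chr19:45006437-45006465, minus strand: caaccccggaaCCGGAAGtcaccggttag
Mrpl3, chr9:105053238-105053266, plus strand: tgagaaacggaCCGGAAGtggcccggctg
Mrps35, chr6:147042726-147042754, minus strand: agggggcgggaCCGGAAGtgtgtaacctg
Mrps23, chr11:88204392-88204420, minus strand: tcgggctgttaCCGGAAGcggaagcggca

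With the letters given first for each, the sequences of SP/KLF, NFY, TATA box, E-box, CREB/ATF and E2F were near or below their share in open genes. The GATA sequence and some alternative letters, given below, stood above it. GGGCGG (SP/KLF) was in 35 of 78 genes (44.9%), against 57.9% of open and 43% of all genes. It was at footprints in 27 (34.6%), against 41.2% of open and 28.3% of all genes. By subunit it was in 17 of 49 large (34.7%) and 18 of 29 small subunit genes (62.1%), and with GGGGCGGGG in 12.2% and 20.7%. CCAAT (NFY) was in 28 genes (35.9%), against 37.7% of open and 39% of all genes. TATAAA, the core letters of a class of promoters with a fixed start, was in 5 (6.41%), against 7.75% of open and 12.6% of all genes. With 1 more letter, TATAAAA, it was in 4 (5.13%), above the 2.77% of open genes. CACGTG (E-box) was in 5 (6.41%), against 9.68% of open and 7.74% of all genes. TGACGTCA (CREB/ATF) was in Mrpl16 and Mrpl49 (2.56%), against 3.11% of open and 2.43% of all genes. GGCGGGAA (E2F), which overlaps the SP/KLF letters, was in 3 genes (3.85%), against 4.01% of open and 2.96% of all genes. Of the sequences of muscle factors, GGAATG (TEAD) was in 9 genes (11.5%), against 12.4% of open and 13.5% of all genes, and CTAAAAATA (MEF2) in none, against 0.372% of open and 0.479% of all genes. GGAATG was at footprints in 5 genes (6.41%), against 3.19% of open and 2.19% of all genes, while GGAATGT was in 0, against 2.82% of open genes. The heart factor GATA4 binds AGATAAG, found in Mrpl45, Mrps14 and Mrps17 (3.85%), against 2.01% of open and 2.8% of all genes. It was at footprints in 2 genes (2.56%), against 0.292% of open and 0.201% of all genes. The shorter GATAAG was in 5.13% of members and of open genes, and at footprints in 1.28% and 1.08%. TCAAGGTCA (ERR) and ACTACAATT (THAP11/ZNF143) were also in none of the 78, against 0.475% and 0.497% of all genes, shares at which fewer than 1 of 78 genes would hold them. With looser letters, CAAGGTCA (ERR) was in 2 genes (2.56%), against 1.21% of open genes, and CTACANNTC (THAP11/ZNF143) was in 7 (8.97%), against 6.03% of open genes.

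Genes that work with the mitoribosome were open as well. All 239 genes of 8 lists had a promoter peak in both replicates, against 68.8% of all protein-coding genes. These were 77 cytosolic ribosomal proteins, 78 nuclear subunits of the respiratory chain, 5 mitoribosomal proteins without the prefix, 11 mitochondrial translation factors, 24 assembly and rRNA modification factors, 20 mitochondrial aminoacyl-tRNA synthetases, 10 genes for mitochondrial DNA transcription and upkeep, and 14 nuclear regulators. The median signal of 8.66 over the mitoribosomal genes stood beside 8.59 for the mitoribosomal proteins without the prefix, 8.89 for translation factors, 8.22 for assembly factors and 9.495 for the synthetases. It stood below 11.2 for mitochondrial DNA upkeep, 10.8 for the cytosolic ribosome and 10.5 for the respiratory chain. A head-to-head partner, found for 29.5% of mitoribosomal genes, was also found for 40% of the synthetases, 29.5% of respiratory chain genes, 29.2% of assembly factors and 14.3% of cytosolic ribosomal protein genes, beside 11.2% of open genes and 7.91% of all genes.

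**Figure D5:**
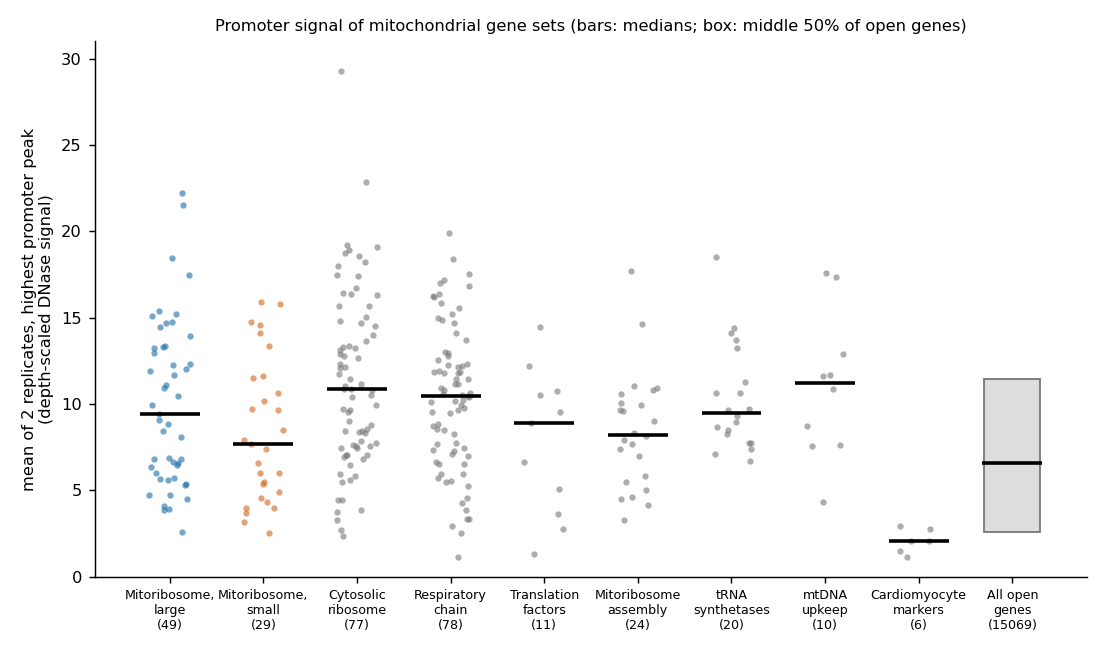
Mean promoter signal of the replicates for each gene of the large and small mitoribosomal subunits and of 7 other lists, with the median as a bar, beside the middle 50% of the 15069 open genes as a box. The medians of the mitoribosomal subunits, 9.40 and 7.70, lie within the box and above the 6 cardiomyocyte markers, whose median is 2.08.

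The genes of the factors named above were themselves open. Yy1 averaged 18.0 ± 1.11, Nrf1 11.3 ± 0.315 and Gabpa, the DNA-binding subunit of GABP, 7.11 ± 1.44 (SD, n = 2 each). The values at Gabpa, 8.13 in replicate 1 and 6.09 in replicate 2, were the same as at Atp5j of the respiratory chain list. Both genes may thus take them from 1 shared peak. Esrra, encoding the receptor ERRα, averaged 23.9 ± 5.72, and Zfp143 21.96 ± 6.49. Ppargc1a, the coactivator known to raise mitochondrial biogenesis, had the lowest promoter signal of the 14 regulators, 1.08 ± 0.00161.

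Regions around the genes were counted as well. Accessible regions found in both replicates, counted over the gene body with 10 kb on each side, had a median of 3 per gene, against 5 for open genes and 3 for all protein-coding genes. Those away from any protein-coding promoter had a median of 1, against 2 for open genes and 1 for all genes. For 28 of 78 genes (35.9%) there was no such distal region, against 21.6% of open genes and 34.5% of all genes, so the members were close to the share over all genes. The members are shorter than open genes, with a median length of 7900 bp, against 24778 bp, and a longer gene gives a wider stretch to count over. Mitoribosomal promoters were rich in CpG: the observed over expected CpG ratio of the 300-base window had a median of 0.820, against 0.706 over open genes and 0.524 over all genes, at GC contents of 57.7%, 59.3% and 55.0%. The authors' lists of bases with a false discovery rate of cleavage under 0.05 covered a median of 821 bases in replicate 1 and 836.5 in replicate 2 of the 1 kb either side of the 5' end, against 922 and 956 for open genes.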

How the data were processed

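DNase-seq libraries of 2 biological replicates of 1 group were analysed. The peak signal was deposited by the authors with each peak, called per replicate on mm10 and scaled by read depth as far as the deposited notes tell; caller, versions and depths are not given here. The FDR lists, made by the authors per replicate, hold runs of bases with an FDR of cleavage under 0.05. The deposited footprint lists, made by the authors, were used by position, and their other column, 0.01 throughout, was not.

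Members and lists were chosen with earlier results of these data known. Protein-coding genes of GENCODE M21 were merged by symbol. A promoter was 1 kb either side of any start, and its value the highest peak overlapping it, 0 with none; means and SDs are over the replicates. Footprints were paired at 50% mutual overlap. Consensus sequences were matched exactly on GRCm38.p6 (mm10), where a match within 10 bases of a footprint of each replicate counted as at a footprint. The start nearest the peak was added after seeing the data.

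Named genes were fixed by rule: in each subunit the 5 highest and 5 lowest, the 5 with most shared footprints, the 3 that lost most without peaks at other genes, 11 disease genes, and their partners; other names were chosen after values were seen. Of 25 assembly genes 24 were found by symbol. On simulated data promoter overlaps, head-to-head pairs, planted motifs, footprint pairs and start codons came out right in 100% of cases. Python 3.11.15, numpy 2.4.6, pandas 2.3.3 and matplotlib 3.10.9 were used. Alternatives covered peak sets, windows, starts, consensus sequences and single replicates. Reads and alleles were not analysed here.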

Additional observations from a re-analysis of the deposited data

How the results depend on the processing

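All 78 genes had a peak in both replicates in every alternative tried except 2: around the outermost 5' end alone 76 did, and with peaks at 1 gene only 50 did, 30 of them in the large subunit. Among open genes 85.2% kept such a peak, against 64.1% of the members. Peaks at 1 gene only also lowered the median signal of the members to 3.98, against 4.05 over open genes. Genes left without such a peak counted as 0 under this alternative. It turned the difference between large and small subunit medians to -0.46. That difference was 1.99 around the outermost 5' end alone, 1.73 with subunits by structure (chosen after seeing the data), and between 1.54 and 1.57 with 1 replicate left out; its cause was not tested. The consensus counts moved with the letters required: 15 genes (19.2%) for GCGCANGCG (NRF1), 4 (5.13%) for ACCGGAAGT (ETS) and 11 (14.1%) for AANATGGCG (YY1). The shares of open genes were 11.3%, 1.80% and 3.90%. At footprints of both replicates, 16 genes kept a CCGGAAG (ETS) match. Of 34 named members, 14 moved by more than their SD with peaks at 1 gene only and 1 around the outermost 5' end alone, and 0 under the other 6 alternatives that keep both replicates. Leaving out 1 of 2 replicates cannot move a mean by more than its SD, so it tests nothing here. The number of members with a partner, with a shared footprint, or with any of the 3 sequences stayed within 1.5 times, as did the 239 open genes of the lists. No paired analysis between groups was possible because the study has a single group. Unknown read depth and the 2 replicates limit every value.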
